A study of Mus musculus with 5 samples.

Results

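Messenger RNA levels of 10 inflammatory cytokine genes of macrophages, Il1a, Il1b, Il1rn, Tnf, Il6, Il10, Il12b, Il18, Osm and Il27, were examined in 5 RNA sequencing libraries of macrophages sorted from the mouse aorta. The genes were taken from a list of names that was chosen with earlier results of these data known. All 10 were found among the 41388 genes of the tables by pairing Ensembl IDs with symbols. The 3 adventitia libraries came from ApoE-/- mice on the C57BL/6 strain that had eaten a high-fat diet for 28 weeks (6 mice are given for the group), and the cells were viable, CD64+ and sorted from the outer coat of the whole aorta, abdominal part included. The 2 intima libraries came from C57BL/6 mice, with 5 animals pooled in each, and the cells were viable, CD64+, CD11c+ and MHC II+ and sorted from thoracic aorta stripped of its outer coat. Every group went through enzymatic digestion before the sort. Aortic layer, genotype, segment and gate changed together between the groups, a diet is given for the ApoE-/- mice only, and age and sex are not given, so their parts in a difference cannot be told apart. Nothing in the labels says whether the adventitia libraries came from separate mice, so the p-values rest on library-to-library spread that may be technical.

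Cytokines are small secreted proteins by which macrophages call in and instruct other cells. Interleukin 1 alpha and beta bind the same receptor and drive inflammation, and the receptor antagonist encoded by Il1rn occupies that receptor without signalling. TNF acts through its own receptors, IL-6 and oncostatin M through receptors that share the gp130 chain, and IL-10 restrains macrophage activation through STAT3. IL-12p40, encoded by Il12b, and IL-27p28, encoded by Il27, act mainly with a partner subunit, and interleukin 1 beta and interleukin 18 are made as precursors that caspase 1 cuts to their active form.

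The 10 genes lie on 7 mouse chromosomes. In GRCm38, Il1a (129299610 to 129309972) and Il1b (129364570 to 129371139) are neighbours on the minus strand of chromosome 2, 54597 bases apart, and Il1rn is on the same chromosome at 24336853 to 24351494. Tnf is on chromosome 17 (35199381 to 35202007), Il6 on chromosome 5 (30013161 to 30019968), Il10 on chromosome 1 (131019845 to 131024974), Il18 on chromosome 9 (50575273 to 50581837) and Il27 on chromosome 7 (126589010 to 126594941). Osm (4236420 to 4241026) and Il12b (44400063 to 44414033) are both on chromosome 11. RefSeq promoter windows of GRCm38.p6, from 250 bases before to 50 bases after a start site, matched 7 of the 10 genes. Those of Il1b and Tnf, the members with the highest level per length in the intima, of Il1a, the neighbour of Il1b, and of Il6, which had almost no reads there, are shown on their own strand with matches to the searched motifs in capitals.
Il1b, chr2:129371090-129371389, minus strand: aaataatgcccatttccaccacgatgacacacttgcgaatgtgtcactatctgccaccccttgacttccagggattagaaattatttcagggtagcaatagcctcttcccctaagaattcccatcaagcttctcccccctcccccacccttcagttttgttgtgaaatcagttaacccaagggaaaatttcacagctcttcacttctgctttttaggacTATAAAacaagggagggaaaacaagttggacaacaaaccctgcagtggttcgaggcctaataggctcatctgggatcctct
Il1a, chr2:129309923-129310222, minus strand: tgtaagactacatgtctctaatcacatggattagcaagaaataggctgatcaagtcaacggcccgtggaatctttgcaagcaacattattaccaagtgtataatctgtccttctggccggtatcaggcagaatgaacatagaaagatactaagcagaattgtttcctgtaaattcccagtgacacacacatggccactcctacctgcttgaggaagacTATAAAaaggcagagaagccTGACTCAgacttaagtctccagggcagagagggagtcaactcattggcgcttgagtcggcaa
Tnf, chr17:35201958-35202257, minus strand: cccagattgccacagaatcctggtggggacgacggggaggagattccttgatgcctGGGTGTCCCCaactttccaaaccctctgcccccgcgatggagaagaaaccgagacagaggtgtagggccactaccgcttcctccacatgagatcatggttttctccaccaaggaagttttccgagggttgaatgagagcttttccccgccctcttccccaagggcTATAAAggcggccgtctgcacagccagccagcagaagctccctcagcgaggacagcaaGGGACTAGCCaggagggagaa
Il6, chr5:30012864-30013163, plus strand: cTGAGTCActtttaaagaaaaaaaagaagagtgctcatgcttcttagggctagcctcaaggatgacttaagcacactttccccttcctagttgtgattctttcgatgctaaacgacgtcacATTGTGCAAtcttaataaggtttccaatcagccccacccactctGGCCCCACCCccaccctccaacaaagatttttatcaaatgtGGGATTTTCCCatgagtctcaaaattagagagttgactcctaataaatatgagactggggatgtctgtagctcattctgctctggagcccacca
The motifs, searched on both strands, were TGANTCA (AP-1), GGGNNNNNCC (a loose form of the NF-kB site), TTGCNNAAT (C/EBP), TGACGTCA (CRE) and the core promoter element TATAAA. Of 32851 mouse promoter windows of the same length, 7.81% held the AP-1 letters, 50.8% the NF-kB letters, 2.40% the C/EBP letters, 1.79% the CRE letters and 13.6% the TATA letters. TATAAA began 31, 32 and 29 bases before the start site in Il1b, Il1a and Tnf, and the window of Il6 had none. The Il6 window held AP-1 letters, C/EBP letters and 3 matches to the NF-kB letters, of which 2 overlapped each other. The Il1b window held none of the motifs but the TATA box. The letters describe these windows and say nothing of which factors were bound.

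The libraries held 3941381 to 20806925 counted reads, adventitia replicate 1 being the smallest. A floor of 3 reads was worth 0.761 CPM (reads scaled to a shared library size) there and 0.144 CPM in intima replicate 2, the deepest. The 10 macrophage markers, Csf1r, Adgre1, Cd68 and Fcgr1 among them, had reads in all 5 libraries, with a summed level of 16898 to 22247 CPM in adventitia libraries and 17721 and 14456 CPM in intima libraries. The intima pair disagreed more between themselves than the 3 others, common biological coefficients of variation being 1.28 and 0.703. Levels below are CPM as deposited, and in bulk RNA fewer cells of a type and less RNA per cell cannot be told apart. Differences are log2 values, intima minus adventitia, from edgeR's quasi-likelihood fit over all genes.

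**Figure D1:**
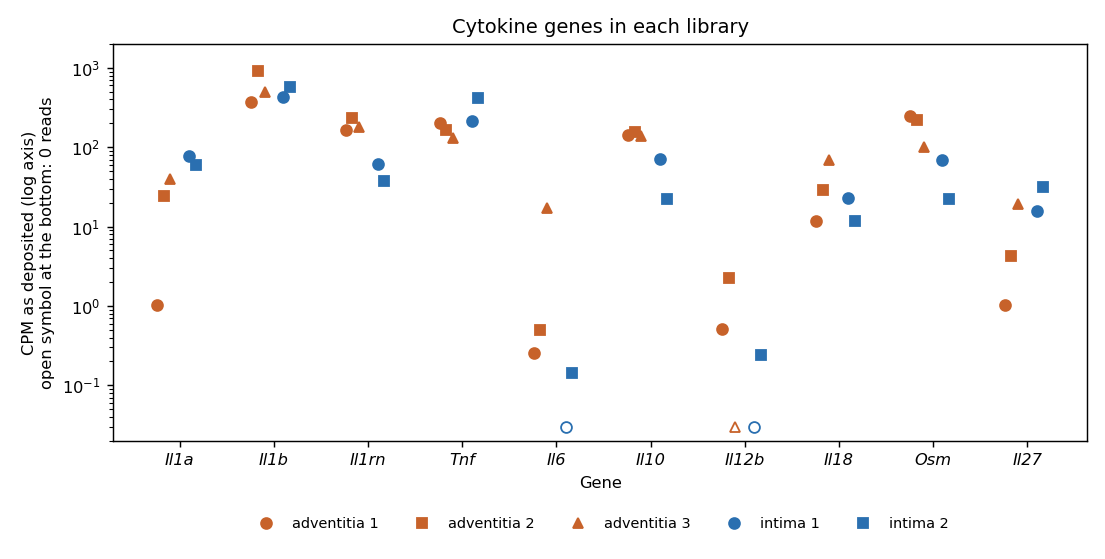
CPM of the 10 cytokine genes in the 3 adventitia libraries (orange) and the 2 intima libraries (blue), on a log axis, with open symbols at the bottom for libraries with 0 reads. Il1b was between 376 and 904 CPM in all 5 libraries, the intima values of Il1rn, Il10 and Osm lay below the adventitia values, and Il6 stood out in adventitia replicate 3 alone.

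Il1b was the cytokine gene with the highest level per length in every library. It had 1483, 9110 and 5058 reads in adventitia replicates 1, 2 and 3, or 376, 904 and 503 CPM, and 6480 and 12028 reads in the intima replicates, or 433 and 578 CPM. Both intima values lay inside the adventitia range. In RPKM (CPM divided by exonic length in kilobases) it exceeded 98.5 to 99.5% of the genes with reads in a library. Its fitted log2 difference was -0.02 (SE 0.47, n = 3 and 2, adjusted p = 0.986). The sign of so small a value was not stable over the alternatives, which ran from -0.50 to 0.38. A gene on the other strand, Il1bos, shares 25 exonic bases with Il1b and had 6 to 51 reads in the adventitia and none in the intima.

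Il1a, the other interleukin 1 ligand, had 4, 247 and 395 reads in the adventitia (1.01, 24.5 and 39.3 CPM) and 1161 and 1244 reads in the intima (77.6 and 59.8 CPM). Both intima values lay above every adventitia value. The adventitia libraries were 38.7-fold apart at their extremes, because replicate 1 had 4 reads, with a 95% Poisson interval of 0.277 to 2.60 CPM that did not reach the other replicates. The intima libraries were 1.30-fold apart. The log2 difference was 1.84 (SE 1.06, adjusted p = 0.337), and it was 1.22 without adventitia replicate 1 and 2.61 without adventitia replicate 3. With limma voom it was 2.45, and with the replicate number as a block 3.84. Il1a shares 222 exonic bases with Gm14023 on the opposite strand, which had 10 to 104 reads in the adventitia and 346 and 234 in the intima. No strand setting is stated, so reads of these bases cannot be assigned to a strand.

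Il1rn, the natural blocker of both ligands, had its higher values in the adventitia. Its level was 163, 237 and 181 CPM in adventitia libraries (641, 2385 and 1822 reads) and 62.3 and 37.2 CPM in intima libraries (932 and 774 reads). The groups did not overlap. The mean was 194 ± 38.5 CPM in adventitia libraries (SD, n = 3) and 49.7 ± 17.7 CPM in intima libraries (SD, n = 2), a log2 difference of -1.71 (SE 0.53) with adjusted p = 0.113, which missed the threshold of 0.05. It was -2.37 without intima replicate 1 and -1.24 without intima replicate 2. DESeq2 on the same genes gave -1.83 with adjusted p = 0.0251, in a fit that called 5.41% of all genes as lower in the intima. It was the only member called by any alternative, and its adjusted p over the alternatives ranged from 0.0251 to 0.315.

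Il18, an interleukin 1 relative that prompts interferon gamma from lymphocytes, was at 11.9, 28.7 and 69.1 CPM in adventitia libraries and 23.0 and 11.6 CPM in intima libraries. The groups overlapped, and the highest and lowest adventitia libraries were 5.80-fold apart. The log2 difference of -0.87 (SE 1.02, adjusted p = 0.682) rested on adventitia replicate 3, without which it was 0.01, and it was -1.70 without intima replicate 1. The deposited tables count Il18 over 714 exonic bases that begin 20573 bases downstream of the RefSeq start site, so reads from exons before that point are not in its count.

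Tnf was the second most abundant member per length in both intima libraries. It was at 205, 167 and 130 CPM in adventitia libraries (807, 1685 and 1312 reads) and at 215 and 412 CPM in intima libraries (3217 and 8572 reads). The lower intima value was only just above the highest adventitia value. The log2 difference was 1.13 (SE 0.43), with adjusted p = 0.156, and over the scalings tried it ran from 0.63 to 1.13.

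Il6 and Osm belong to the gp130 family and had different patterns. Il6 had 1, 5 and 173 reads in adventitia replicates 1, 2 and 3, or 0.254, 0.496 and 17.2 CPM, and 0 and 3 reads in the intima, or 0 and 0.144 CPM. Thus 1 library held nearly all its reads, and the 0 reads of intima replicate 1 have a 95% Poisson upper limit of 0.246 CPM. Il6 was dropped by the filter on low counts and was not tested. The pooled ratio of adventitia to intima was 77.6 with a 95% counting interval of 26.1 to 380, and without adventitia replicate 3 it was 4.33 with an interval of 0.924 to 26.7. Both intervals cover counting error only. Fibroblasts are another known source of IL-6, and the summed level of the 8 fibroblast markers was 1461 CPM in adventitia replicate 3, 711 and 641 CPM in replicates 1 and 2, and 268 and 225 CPM in intima libraries. The most abundant of them, Dcn, was at 341, 325 and 702 CPM in adventitia libraries and 107 and 15.4 CPM in intima libraries. No fibroblast marker was at 0 in the adventitia, and 3 of 8 were at 0 in intima replicate 2. For 5 of the 8 both intima values lay below every adventitia value, against 26.4% over all tested genes. The markers Col1a1, Col3a1 and Pi16 overlapped between the groups. Col1a1 was at 65.0 to 148 CPM in adventitia libraries and 0.468 and 81.0 CPM in intima libraries. The cells were sorted as CD64+, and the part of fibroblasts in the Il6 reads was not tested.

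Osm, which encodes oncostatin M and is made largely by myeloid cells, was at 251, 218 and 99.7 CPM in adventitia libraries (989, 2193 and 1002 reads) and 68.5 and 22.2 CPM in intima libraries (1025 and 461 reads). The groups did not overlap, although adventitia replicate 3 and intima replicate 1 were close to each other. The log2 difference was -1.76 (SE 0.65, adjusted p = 0.147). Leaving out single libraries gave -1.03 without intima replicate 2 and -3.05 without intima replicate 1. The intima libraries themselves were 3.09-fold apart.

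Il10, the main anti-inflammatory member, was the steadiest gene of the set in the adventitia, with 144, 156 and 138 CPM (568, 1571 and 1386 reads), 1.13-fold apart at the extremes. In the intima it was at 72.1 and 22.0 CPM (1079 and 457 reads), 3.28-fold apart. Both intima values lay below every adventitia value. The log2 difference was -1.35 (SE 0.62) with adjusted p = 0.226, and it was -0.61 without intima replicate 2 and -2.71 without intima replicate 1.

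Il12b was barely detected. It had 2, 23 and 0 reads in the adventitia and 0 and 5 reads in the intima, which is at most 2.28 CPM. The groups overlapped, and Il12b was not tested. The pooled ratio of adventitia to intima was 6.50 with a counting interval of 2.45 to 21.8, and 0.896 (0.0853 to 5.47) without adventitia replicate 2. Its partners were also scarce: Il12a, which completes IL-12, was at 2.18 CPM or less and Il23a, which completes IL-23, at 0.507 CPM or less in every library.

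Il27 had 4, 43 and 195 reads in the adventitia (1.01, 4.27 and 19.4 CPM) and 233 and 647 reads in the intima (15.6 and 31.1 CPM). Adventitia replicate 3 lay between the intima values, so the groups overlapped. The log2 difference was 1.63 (SE 1.39, adjusted p = 0.543), 3.30 without adventitia replicate 3 and 1.04 without adventitia replicate 1. With limma voom it was 2.50, and with the replicate number as a block 3.65. Ebi3, whose product pairs with IL-27p28, was at 18.0, 35.4 and 24.2 CPM in adventitia libraries and 39.3 and 68.0 CPM in intima libraries (log2 difference 1.25, SE 0.74, adjusted p = 0.349). For both subunits, intima replicate 2 was the highest library. Il27 shares 103 exonic bases with Apobr on the other strand, which had 8 to 187 reads in the adventitia and 1270 and 1222 in the intima.

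Across the comparison, 8 of the 10 genes were tested and 0 were called in edgeR, where 0.671% of 13408 tested genes (90) were called, 70 of them higher (0.522% of the genes) and 20 lower in the intima (0.149%). Of the called genes 77.8% were higher (against 63.4% with no factor but the read total and 61.3% by upper quartiles). The split turned with other choices, since 40.8% of the calls were higher with DESeq2, 34.1% when all libraries of either group had to reach 1 CPM, and 25.5% with limma voom. The number of genes called was 10, 52 and 46 without adventitia replicates 1, 2 and 3 and 389 and 136 without intima replicates 1 and 2. At an unadjusted p under 0.05 edgeR passed 3 members, Il1rn, Osm and Tnf, against 22.4% of all tested genes, and limma voom called 0 members and 6.26% of all genes. DESeq2 called 1 member and 9.14% of all genes, 5.41% as lower in the intima. The CPM ranges of the groups lay apart for 5 of the 8 tested members, Il1a and Tnf above and Il1rn, Il10 and Osm below in the intima. Over all tested genes 40.5% lay apart, 14.1% with the intima above and 26.4% with the intima below, so lying apart was common in these libraries. The median log2 difference of the tested members was -0.45 and that of all tested genes 0.14. The all-gene median was -0.02 with DESeq2 size factors, -0.09 with no factor but the read total, and -0.35 by upper quartiles. Relative to the median of 0.14, Il1a was at 1.71, Il27 at 1.50, Tnf at 0.99, Il1b at -0.16, Il18 at -1.01, Il10 at -1.49, Il1rn at -1.85 and Osm at -1.90 on the log2 scale, and none of these 8 genes changed sign over the scalings.

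**Figure D2:**
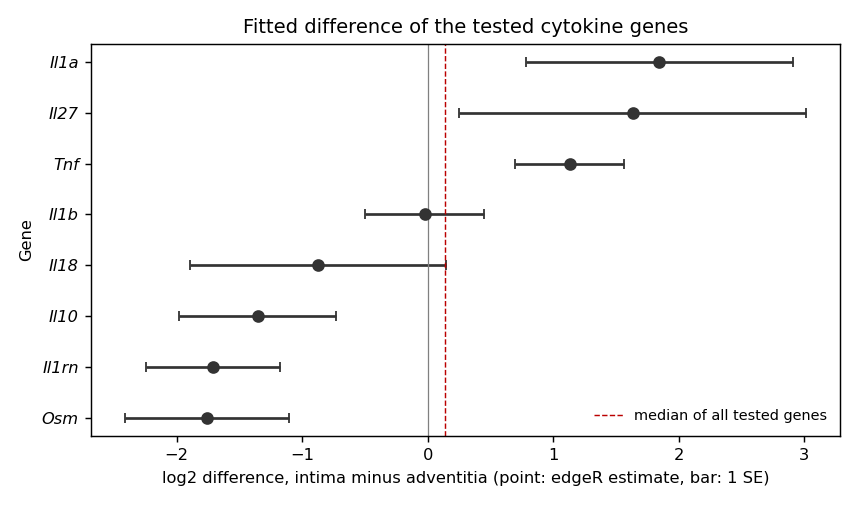
Fitted log2 difference, intima minus adventitia, of the 8 tested cytokine genes, with bars of 1 SE and a dashed line at the median of all tested genes, 0.14. Il1a, Il27 and Tnf had positive estimates and Osm, Il1rn, Il10 and Il18 negative ones, and none passed the adjusted threshold.

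Ratios of members within a library do not depend on how libraries are scaled. The RPKM ratio of Il1rn to Il1b was 0.257, 0.156 and 0.214 in the adventitia and 0.0855 and 0.0383 in the intima. Messages of the agonist thus outnumbered those of the antagonist per length in all 5 libraries, by 3.89 to 6.42 times in the adventitia and by 11.7 and 26.1 times in the intima. The log2 ratio averaged -2.29 ± 0.37 in the adventitia (SD, n = 3) and -4.13 ± 0.82 in the intima (SD, n = 2), with no overlap and an exact two-sided permutation p = 0.1 (0.2 after adjustment over 4 ratios). With 10 ways to divide 5 libraries into 3 and 2, 0.1 is the smallest p this test can give. The ratio of Il10 to Tnf was 0.881, 1.17 and 1.32 in the adventitia and 0.420 and 0.0667 in the intima. The 2 messages were thus within 1.32-fold of each other per length in the adventitia, and Tnf was the more abundant in both intima libraries. The log2 difference of this ratio was -2.73 (exact permutation p = 0.1, adjusted 0.2), or -4.05 and -1.40 without intima replicates 1 and 2.

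The ratio of Il1a to Il1b was 0.00261, 0.0262 and 0.0754 in the adventitia and 0.173 and 0.0999 in the intima. Il1b was ahead of Il1a everywhere, least so in the intima. The log2 difference of 2.93 (exact permutation p = 0.2, adjusted 0.267) dropped to 1.56 without adventitia replicate 1. The ratio of Il18 to Il1b, 0.0846, 0.0847 and 0.367 against 0.142 and 0.0537, overlapped between the groups, with a log2 difference of -0.66 (exact permutation p = 0.7, adjusted 0.7). It was 0.04 without adventitia replicate 3 and also 0.04 without intima replicate 2.

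**Figure D3:**
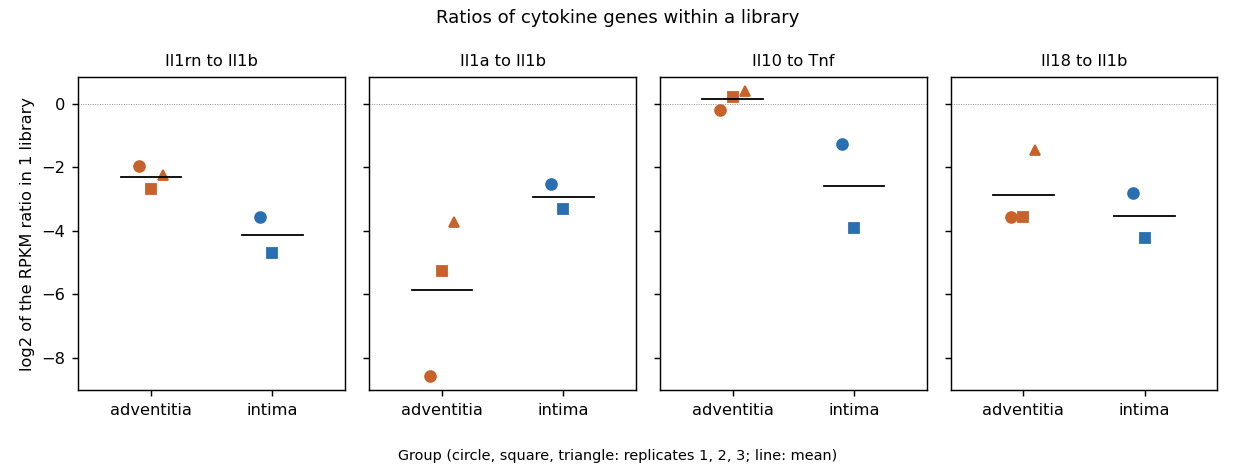
Log2 of 4 RPKM ratios in each library, with the adventitia in orange, the intima in blue and a line at each group's mean. The ratios of Il1rn to Il1b and of Il10 to Tnf were lower in both intima libraries than in any adventitia library, that of Il1a to Il1b was higher, and that of Il18 to Il1b overlapped.

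In mean RPKM the adventitia order was Il1b (312 ± 144, SD, n = 3), Il10 (111 ± 7.00), Tnf (102 ± 22.7), Osm (83.4 ± 35.0), Il1rn (60.3 ± 12.0), Il18 (51.2 ± 41.2), Il1a (10.9 ± 9.78), Il27 (8.06 ± 9.61), Il6 (5.51 ± 8.94) and Il12b (0.473 ± 0.609). Only Il1b was clear of its neighbour in every library pairing, since the ranges of each other neighbouring pair overlapped. In the intima the order was Il1b (265 ± 53.8, SD, n = 2), Tnf (191 ± 85.0), Il10 (35.9 ± 27.0), Il1a (34.8 ± 6.36), Il18 (24.2 ± 11.2), Il27 (22.9 ± 10.8), Osm (19.9 ± 14.4), Il1rn (15.5 ± 5.52), Il6 (0.0663 ± 0.0938) and Il12b (0.0611 ± 0.0864). Tnf stood clear of Il10, and Il1rn of Il6, while the ranges of the other neighbours overlapped. Il1b and Tnf together gave the larger part of the summed RPKM of the 10 genes in the intima, with 41.3 and 45.3% from Il1b and 23.9 and 37.5% from Tnf. In the adventitia Il1b gave 32.2, 51.4 and 37.7% and Tnf 20.4, 11.1 and 11.4%. The share of Il1rn was nearly constant in the adventitia, at 8.28, 8.00 and 8.07%, and was 3.53 and 1.73% in the intima.

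**Figure D4:**
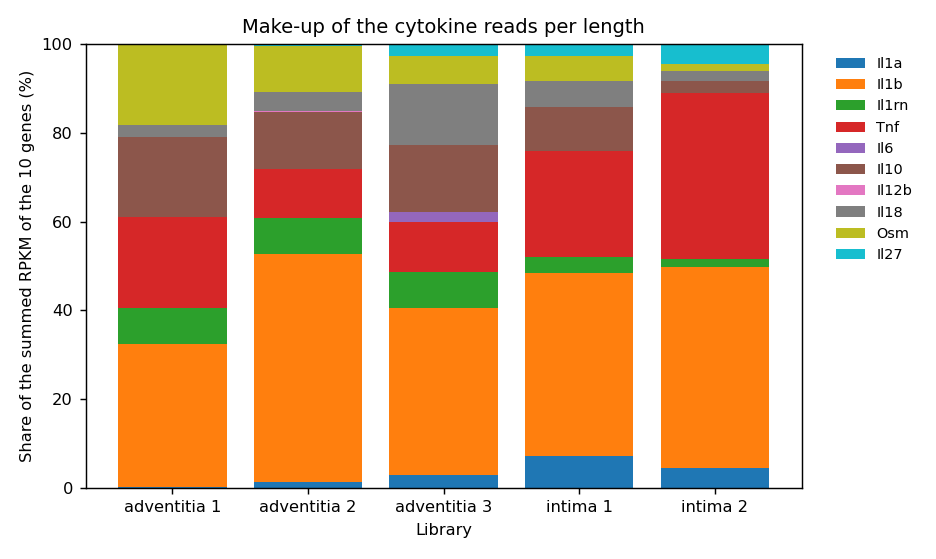
Share of each cytokine gene in the summed RPKM of the 10 genes, one bar per library. Il1b was the largest share in all 5 libraries, and Tnf was next to it in both intima libraries, where Il10, Osm and Il1rn had smaller shares than in the adventitia.

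The genes around these cytokines were read from 7 lists. Of the receptors, inhibitors and processing genes of IL-1 and IL-18, 15 of 16 were tested and 0 called, with a median log2 difference of 0.25. Casp1, the protease that matures interleukin 1 beta, was at 83.5 to 151 CPM in adventitia libraries and 131 and 87.0 CPM in intima libraries, and Casp4, which senses bacterial lipopolysaccharide in the cell, at 120 to 176 CPM and 125 and 43.9 CPM. Il33, an interleukin 1 relative released by damaged stromal cells, was at 2.79, 21.0 and 91.3 CPM in adventitia libraries and had 1 read in each intima library (fitted log2 difference -9.02, SE 2.04, adjusted p = 0.0868). The pooled ratio of adventitia to intima was 742 with a counting interval of 205 to 6136. Like Il6 it was highest in adventitia replicate 3. Nlrp3, the sensor of the inflammasome, was at 63.1 to 141 CPM against 21.7 and 40.4 CPM, and Gsdmd, which forms the pore through which interleukin 1 beta leaves the cell, at 22.6 to 42.0 against 69.8 and 129 CPM. Their log2 differences were -1.63 (SE 0.61, adjusted p = 0.152) and 1.92 (SE 0.62, adjusted p = 0.116). The receptor gene Il1r2 was at 2.54, 12.1 and 12.0 CPM in adventitia libraries and 10.1 and 144 CPM in intima libraries. Its groups overlapped, and its log2 difference was 3.23 (SE 1.08, adjusted p = 0.121).

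Of the TNF receptor and signalling genes 8 of 10 were tested and 0 called, with a median of 0.13. Birc3, a ubiquitin ligase of the TNF receptor complex, was at 294, 256 and 156 CPM in adventitia libraries and 33.3 and 34.7 CPM in intima libraries. Its log2 difference of -2.54 (SE 0.51) missed the threshold, with adjusted p = 0.0549. Tnfaip3, the feedback inhibitor A20, was at 378 to 518 against 197 and 226 CPM (adjusted p = 0.221). The receptor genes Tnfrsf1a and Tnfrsf1b had overlapping groups.

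The gp130 list had 8 of 11 genes tested and 0 called, with a median of -0.38. The kinase gene Jak1 was at 274 to 290 CPM in adventitia libraries and 219 and 182 CPM in intima libraries, and Lifr, the leukaemia inhibitory factor receptor, at 261 to 311 and 116 and 240 CPM. Osmr, the receptor for oncostatin M, was at 1.27, 1.89 and 4.48 CPM in adventitia libraries and 17.4 and 7.06 CPM in intima libraries (log2 difference 2.48, SE 1.56, adjusted p = 0.380), with its ligand the other way round. The IL-10 list had 7 of 9 tested and 0 called, with a median of -0.25. Il10rb, the shared receptor chain, was at 205 to 254 and 243 and 250 CPM, and Bcl3, a nuclear partner of NF-kB, at 10.4, 20.2 and 13.5 CPM against 0.267 and 0.0481 CPM (log2 difference -6.23, SE 2.04, adjusted p = 0.116).

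Of the IL-12 family genes 8 of 11 were tested and 0 called, with a median of 0.38. The kinase gene Jak2 had overlapping groups (log2 difference 0.26, SE 0.86, adjusted p = 0.905). Il12rb1, the receptor chain for IL-12p40, was at 1.27, 1.19 and 5.57 CPM in adventitia libraries and without a read in both of the intima (adjusted p = 0.103). Of the other macrophage cytokines 9 of 10 were tested, 1 was called higher and 0 lower, with a median of 0.62. The called gene was Ifnb1, which encodes interferon beta, with 0, 0 and 1 read in the adventitia and 19.0 and 78.0 CPM in intima libraries (fitted log2 difference 10.03, SE 1.63, adjusted p = 0.0178). With 1 read in the adventitia, the pooled ratio of intima to adventitia was 1465 with a counting interval of 263 to 57899. Without adventitia replicates 1, 2 and 3 its adjusted p was 0.215, 0.0696 and 0.0977, while the fitted log2 difference was 9.74, 9.42 and 12.26. Il16, a T cell attractant, was at 30.4 to 87.9 CPM against 128 and 97.9 CPM, and Il15, which sustains NK and memory T cells, at 53.0 to 62.9 CPM against 139 and 6.78 CPM, neither past the test.

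NF-kB is the transcription factor that drives many of these cytokine genes, and all 16 genes of its list were tested and 0 called, with a median of -0.26. Within it Ccl4, a chemokine for lymphocytes and monocytes, was at 3564 to 5387 CPM in adventitia libraries and 6040 and 5489 CPM in intima libraries, while the levels were 4384 to 6914 and 2404 and 2628 CPM for Cxcl2, which draws in neutrophils. Both separated the groups, in opposite directions, with log2 differences of 0.64 (SE 0.44, adjusted p = 0.430) and -0.96 (SE 0.44, adjusted p = 0.227). For Ccl4 the lower intima value was only just above the highest adventitia value. Icam1, an adhesion molecule, had the largest difference of the list at 4.13 (SE 1.32, adjusted p = 0.114), with 0.507 to 9.25 CPM in adventitia libraries and 9.42 and 123 CPM in intima libraries. At an unadjusted p under 0.05 edgeR passed 4, 2, 1, 2, 2 and 5 genes of the 6 lists with 0 calls, in the order given, against 22.4% of all tested genes. DESeq2, which called 9.14% of all genes, called 2 genes lower in the IL-1 and IL-18 list (Il33 and Nlrp3), 1 in the TNF list (Birc3), 1 in the IL-10 list (Bcl3), 2 in the IL-12 list (Il12rb1 and Stat4) and 1 in the NF-kB list (Ptgs2), where Icam1 was called higher. Limma voom, with 6.26% of all genes called, called Il33, Birc3, Bcl3 and Il12rb1 lower, and neither tool called a gene of the gp130 list. Among the other macrophage cytokines both called Ifnb1 higher, and DESeq2 also Tnfsf13b.

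**Figure D5:**
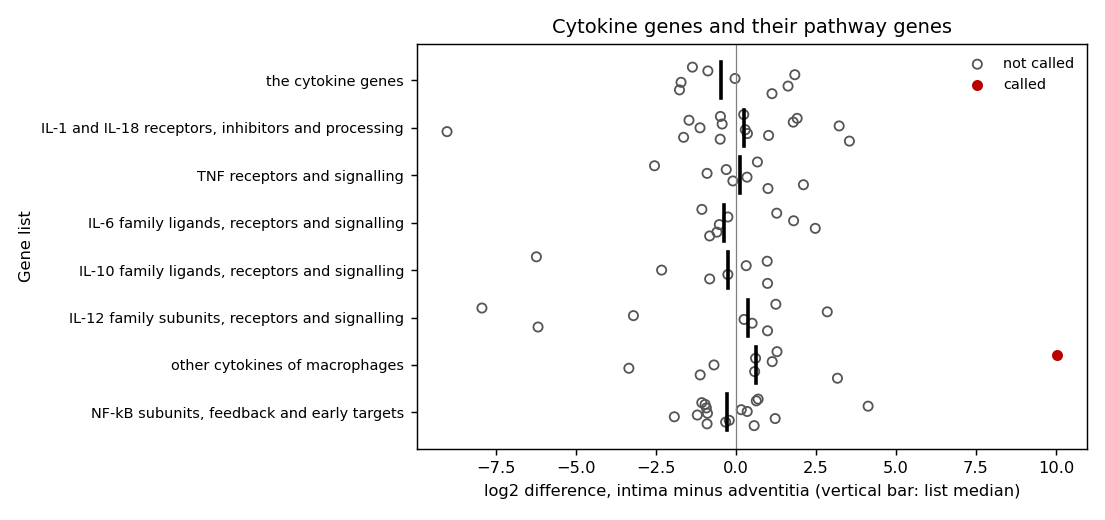
Log2 differences, intima minus adventitia, of the tested cytokine genes and of the tested genes of 7 pathway lists, with a vertical bar at each list's median. Ifnb1 was the 1 called gene, and the list medians lay between -0.45 and 0.62.

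For the 3 tested members with the highest average log2 CPM, Il1b, Tnf and Il1rn, the genes with the most similar pattern over the 5 libraries were found by the root mean square difference of centred log2 levels among 6651 genes. Nearest to Il1b were Ddx60 (0.09), Entpd7 (0.11) and Lrch1 (0.12). Nearest to Tnf were Tmod3 (0.05), Cct2 (0.09) and Brd8 (0.11). Nearest to Il1rn were Bmp2k (0.11), Syne2 (0.16) and Gm12940 (0.18), and Bmp2k was at 686 to 968 CPM in adventitia libraries and 265 and 177 CPM in intima libraries. With 5 libraries and so many genes, a close match describes these libraries only.

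Markers of other cell types, some of which also make these cytokines, differed between the libraries, and the part of such cells in the cytokine values was not tested. Of the 8 monocyte markers 2 were called, Plac8 lower and Ace higher, against 0.671% of all tested genes. The 8 markers summed to 1012 to 1604 CPM in adventitia libraries and 374 and 772 CPM in intima libraries. Ccr2, the most abundant of them, was at 540 to 1067 against 109 and 228 CPM. The 8 neutrophil markers summed to 92.2 to 144 CPM and 73.2 and 102 CPM, with Ly6g at no more than 0.761 CPM and 5 of 8 at 0 in intima replicate 1. Their most abundant gene, Mmp9, was at 20.6 to 33.7 CPM and 68.7 and 0.961 CPM. The 6 mast cell markers summed to 4.82 to 11.7 CPM in adventitia libraries and to 0.468 and 0.0481 CPM in intima libraries, where 4 and 5 of them were at 0, and Kit was the highest. The 8 endothelial markers, led by Pecam1, summed to 30.5 to 46.4 CPM in adventitia libraries and 674 and 767 CPM in intima libraries, with 3 of 7 tested genes called higher (Pecam1, Vwf and Emcn). Over all tested genes 0.522% were called higher. Both intima values lay above every adventitia value for 6 of the 7 endothelial genes, against 14.1% over all tested genes. Kdr went the other way, at 1.27 to 1.89 CPM in adventitia libraries and 0.200 and 0.0481 CPM in intima libraries. The 6 smooth muscle markers, led by Acta2, summed to 2.48 to 9.39 CPM and 264 and 76.9 CPM, with 1 of 4 tested, Tagln, called higher. Acta2 (145 and 23.5 CPM) and Tagln (106 and 49.9 CPM) made up most of the intima sums. Myh11 went the other way, at 0.695 to 1.39 CPM in adventitia libraries and 0.401 and 0 CPM in intima libraries. The fibroblast list had 1 of 8 called lower, against 0.149% of all tested genes. Dendritic cell markers summed to 65.7 to 72.8 CPM in adventitia libraries and 42.9 and 36.8 CPM in intima libraries. Siglech, the most abundant of them, was at 36.5 to 60.1 CPM against 37.6 and 0.0481 CPM. Clec9a was at 0.397 to 4.82 CPM against 4.94 and 21.5 CPM. Of the 7 tested, both intima values lay above every adventitia value for 1 and below for 4. The shares over all tested genes were 14.1% and 26.4%. T and NK cell markers, led by Lck, summed to 3.04 to 10.6 CPM and 0.468 and 50.8 CPM. B cell markers summed to 255 to 772 CPM and 961 and 888 CPM, most of it Ighm, while Ms4a1, which encodes CD20, had 7.06 CPM at most and 0 reads in both intima libraries. Adipocyte markers, led by Fabp4, summed to 5.07 to 8.83 CPM and 23.4 and 0.336 CPM. Genes that respond to tissue dissociation, led by Fos, summed to 9192 to 15645 CPM and 9643 and 8287 CPM, and 0 of 10 were called, with 0 at an unadjusted p under 0.05 in edgeR and 0 called by DESeq2 and limma voom. Their median log2 difference was -0.64. Both intima values lay below every adventitia value for 5 of the 10 and above for 0, against 26.4% below over all tested genes. Each of the called marker genes lost its call without adventitia replicate 1, where the adjusted p-values ran from 0.0501 to 0.215. The fitted log2 differences there were 8.12 for Emcn, 6.68 for Pecam1, 2.92 for Vwf, 8.70 for Tagln, 5.02 for Ace, -10.61 for Plac8 and -9.58 for Lum, against 7.21, 6.64, 3.23, 8.09, 5.34, -10.27 and -9.27 with all libraries. Vwf lost it too without adventitia replicates 2 and 3 and intima replicate 1 (0.0743, 0.140 and 0.0650), and Plac8 and Lum, the called fibroblast marker, without adventitia replicate 3 (0.134 and 0.139). The other tools called more markers. DESeq2 and limma voom both called the fibroblast genes Dcn, Dpt, Lum and Pdgfra, the monocyte genes Ccr2 and Plac8, S100a8 of neutrophils and Xcr1 of dendritic cells lower, and Ace and the smooth muscle genes Acta2 and Tagln higher. Of the endothelial genes 6 were called higher by DESeq2 and 4 by limma voom. DESeq2 alone called Retnlg and Zbtb46 lower, and limma voom alone Flt3 and Ms4a1.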

How the data were processed

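Poly-A RNA of sorted cells was reverse transcribed (SMARTer Ultra Low kit), amplified over 12 PCR cycles and read as single 50-base reads, per the labels' protocols. The submitters' processing notes list the build GRCm38 and the tools featureCounts 1.4.5, Subread and STAR 2.0.4b; strand setting and annotation release are not given in the sources used here. The deposited count column holds whole reads per gene. The deposited CPM and RPKM columns, which the authors scaled by library size and gene length, equalled values computed from the counts (0 mismatches at a tolerance of 1e-06).

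Counts were tested with edgeR 4.0.16 (glmQLFit, glmQLFTest) in R 4.3.3 with TMM factors, after filterByExpr by group (minimum count 10, total 15), with Benjamini-Hochberg adjustment over 13408 genes and a call at an adjusted p under 0.05. All adjusted p-values are edgeR's unless another tool is named. SE is the log2 difference over the square root of F. Poisson and pooled-ratio intervals are exact at 95%, and cover counting error only, since reads copied by PCR were not tied to molecules. Likeness of patterns used log2 (TMM-scaled CPM + 0.5) of genes averaging at least 4 on the log2 CPM scale. Symbols were found for 40254 of 41388 IDs. The fit was tested on simulated counts.

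Named genes were the 10 members, and of each pathway list every called gene, the 2 most abundant and the 1 with the largest difference; of each marker list the most abundant gene; 1 gene so named is not reported here. Others (Nlrp3, Gsdmd, genes called only by DESeq2, the partner subunits, receptor genes, single markers) were chosen after their values were seen. Members and lists were chosen with earlier results of these data known. Alternatives were other scalings, DESeq2 1.42.0, limma 3.58.1 voom, other filters, thinned counts, the replicate number as a block and leaving out each library. Python 3.11.15, pandas 2.3.3, scipy 1.17.1 and matplotlib 3.10.9 were used.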

Additional observations from a re-analysis of the deposited data

How the results depend on the processing

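The log2 differences of Il1a, Tnf, Il27 (positive) and of Il1rn, Il10 and Osm (negative) kept their sign in all 14 alternatives. The sign of Il1b turned to 0.025 with limma voom, 0.13 with no filter beyond 1 read and 0.064 with the replicate number as a block, and that of Il18 to 0.10 with the block; the cause was not tested. The only cytokine gene called was Il1rn with DESeq2 (1 gene, log2 difference -1.83, adjusted p = 0.0251). The number of genes called, 90, was 1225 with DESeq2, 839 with limma voom, 386 with no filter, 396 with 1 CPM in every library of a group and 183 with the replicate block. The numbers pair only 2 libraries of each group and their deviations from the group means were uncorrelated (r = 0.04 and 0.01 for numbers 1 and 2), so the block was not taken as a pairing. Leaving out single libraries gave 10 to 389 called genes and 0 called cytokine genes. The log2 differences then ran from -0.37 to 0.38 for Il1b (the positive value without adventitia replicate 2) and from -1.70 to 0.014 for Il18 (the positive value without adventitia replicate 3), and the ratio differences from -2.42 to -1.26 for Il1rn to Il1b, 1.56 to 3.99 for Il1a to Il1b, -4.05 to -1.40 for Il10 to Tnf and -1.36 to 0.044 for Il18 to Il1b (0.038 without intima replicate 2). A lone intima library was taken to vary like the adventitia ones. Il6 and Il12b were too low for the main filter, and without it their adjusted p-values in edgeR were 0.126 and 0.294.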
